A study of Mus musculus with 5 samples.

Results

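The 8 genes described here, Foxa2, Foxc1, Foxc2, Foxf1, Foxh1, Foxo1, Foxo3 and Foxp1, encode forkhead transcription factors and were taken by their RefSeq symbols from 21000 mouse protein-coding genes. These genes were chosen with earlier results of these data known. Their chromatin was read from DNaseI-seq, which maps DNaseI hypersensitive sites (DHSs), the places where chromatin is open enough for the nuclease to cut. The cells were derived in culture from mouse embryonic stem (ES) cells, strain 129, that carry a Brachyury-GFP (Bry:GFP) reporter. Populations sorted on surface markers were mesoderm (MES, Bry:GFP+ Flk1-), hemangioblasts (HB, Bry:GFP+ Flk1+), hemogenic endothelium (HE, Tie2+ cKit+ CD41-), CD41+ hematopoietic progenitors (HP) and CD11b+ macrophages (MAC) derived from the CD41+ cells. All carried the same reporter. By the study's description of the cultures, the Flk1+ cells received cytokines on the way to HE, HP and MAC, so that stage and cytokine cannot be told apart. No age applies to cells made in culture. Each stage gave 1 list of sites, so no replicate error exists for any value below and no test between stages was possible. The MAC label names 2 replicates together, for which 1 list was analysed.

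A site counted as a promoter site when it lay within 1 kb of any annotated transcription start site (TSS) of a gene. It was linked to the gene if it was a promoter site, or if the nearest protein-coding gene was the member and the site lay inside it or up to 100 kb from its TSS. By this rule 138 of 135173 listed sites belonged to the 8 genes. Sites of all stages, set to 500 bp windows and merged, gave 81 regions at these genes of 68846 regions in all. The lists held between 17734 (HP) and 37456 (MAC) sites, with a median width from 600 bp (MAC) to 1200 bp (HE). They carry no read depth, and the aligned read totals that the study reports were not used here. A gene without a site in a stage is therefore only a gene for which no site was listed.

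Forkhead factors bind DNA through a winged-helix domain, and some of them can engage their sites in compacted chromatin. FOXA2 is a factor of the anterior primitive streak and endoderm, and FOXH1 recruits SMAD proteins to targets of Nodal signaling. FOXF1 and the FOXC factors act in mesoderm and in vessels, where FOXC proteins can work with ETS factors at composite FOX and ETS elements of endothelial genes. FOXO1 and FOXO3 are held in the cytoplasm when phosphorylated by AKT downstream of PI3K and otherwise drive genes of cell cycle arrest and stress defense. FOXP1 is a repressor known in lymphocytes and in the monocyte lineage.

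The promoters of the genes that define the sorts were listed in the sorted stage, but several of them in other stages too. Of the MAC markers, Itgam (CD11b), Csf1r and Adgre1 had a promoter site in MAC alone, and Cd68 had one in all 5 stages. Tek (Tie2) and Cdh5 had one in HE alone, Itga2b (CD41) in HE and HP, and T (Brachyury) in MES and HB. Kdr, which encodes Flk1, had one in all 5 stages, the Flk1- MES included, and Kit and Etv2 had one in every stage but MAC. Mixl1 had one in MES, HB and HE, Pdgfra in every stage but HP, and Spi1 in HE, HP and MAC. Gata1 had no listed site in any stage, HP included. Of the endoderm markers, the promoter sites of Sox17 were listed in HB, HE and HP and those of Cer1 in MES, HB and HE, and the defining markers Hnf4a, Afp and Ttr had none in any list. Of 4 markers of cardiac mesoderm, Nkx2-5 had a promoter site in HE alone, Tbx5 in HB and HE and Hand1 in every stage but MAC, while Myh6 had no listed site in any stage. Of 4 ES cell markers, Pou5f1 had a promoter site in MES alone, Zfp42 in HB alone, and Esrrb and Nanog in MES, HB and HE. The part of such cells in the results below was not tested.

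The promoter sites of the forkhead genes were counted first. Of the 8 genes, 7 had a promoter site in MES and 8 in HB, then 7 in HE, 6 in HP and 5 in MAC. Of all protein-coding genes, 57.2% had one in MES and 58.9% in HB, then 61.7% in HE, 50.1% in HP and 50.2% in MAC. Foxf1, Foxh1, Foxo1, Foxo3 and Foxp1, 5 of 8, had a promoter site in all 5 stages, beside 43.4% of all genes. This count depended on the starts and sites used. With curated starts alone it was 3 of 8 (37.5%, beside 42.3% of all genes), within 100 bp it was 1 (12.5%, beside 41.0%), without the sites narrower than their list's median 2 (25%, beside 32.1%), and with the lists cut to equal length 3 (37.5%, beside 35.5%). The promoter sites of Foxa2 and Foxc2 were listed in MES, HB and HE, and those of Foxc1 in HB and HP.

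The number of linked sites was lowest in HP, which had the shortest list, and followed no common course over the genes. Together the genes had 28 linked sites in MES and 36 in HB, then 29 in HE, 12 in HP and 33 in MAC. The mean over all protein-coding genes was 1.05 sites per gene in MES and 1.17 in HB, then 1.52 in HE, 0.870 in HP and 1.69 in MAC, and the median was 1 in each stage. With the lists cut to their widest sites at equal length, the counts were 16 in MES and 18 in HB, then 12 each in HE and HP and 11 in MAC, and HP was no longer lowest. Foxc1 accounted for 9 of the 36 HB sites and Foxp1 for 15 of the 33 MAC sites. The member sites were mostly narrow. In MES 19 of 28 were narrower than the median of that list, in HB 25 of 36, in HE 17 of 29, in HP 9 of 12 and in MAC 20 of 33.

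**Figure D1:**
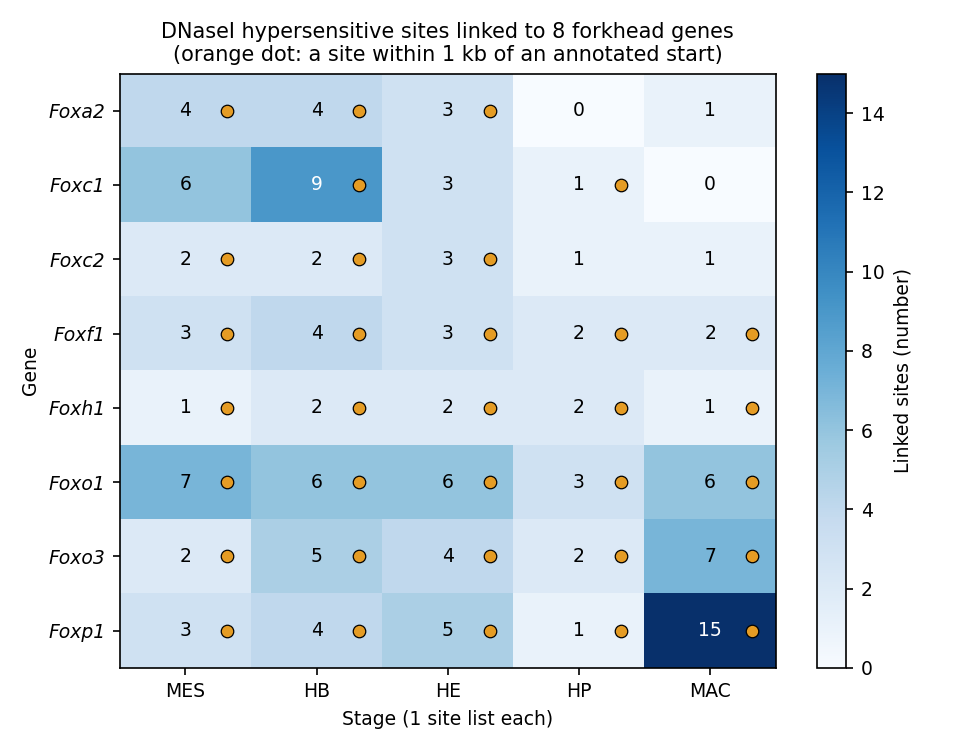
Number of DNaseI hypersensitive sites linked to each forkhead gene (rows) in each stage (columns), 1 list per stage, an orange dot marking a promoter site. Foxc1 reached 9 sites in HB and Foxp1 15 in MAC, and Foxa2 in HP and Foxc1 in MAC had 0.

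Foxa2, at chr2:148042877-148046969 on the minus strand (mm10), had all but 1 of its 12 linked sites in MES, HB and HE. It had 4 in MES and 4 in HB, then 3 in HE, 0 in HP and 1 in MAC. They covered 1.8 kb in MES, 1.9 kb in HB, 3.9 kb in HE and 0.3 kb in MAC. Distances here and below are from the TSS in the direction of transcription, negative upstream. Foxa2 has 3 curated starts, and its distances are from the outermost. The MES and HB promoter sites lay at 0.58 and 0.57 kb, 800 and 400 bp wide, in an intron of the gene. They were also within 1 kb of the inner curated starts, chr2:148045464 and chr2:148045948, the MES site 43 bp away. The HE promoter site was within 1 kb of the outermost start alone. It lay at -1.50 kb, was 1200 bp wide and overlapped a 600 bp HB site at -1.83 kb. No site of any stage covered both places.

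The regions farther from Foxa2 were mostly listed in 1 stage. Downstream, within introns of the long non-coding RNA gene 9030622O22Rik, an HB site lay at 41.6 kb, HE sites lay at 33.3 and 7.65 kb, and the only MAC site, 300 bp wide, lay at 21.3 kb. The HE site at 7.65 kb was, at 1500 bp, the widest linked site of Foxa2 away from its promoter. It and a region of 400 bp sites at 6.03 kb, listed in MES and HB, lay within 1 kb of a start of 9030622O22Rik, and both were CpG-rich. Upstream, MES sites of 300 bp lay at -6.47 and -53.1 kb. A width of 300 bp is near the bottom of the MES list, of which 2.18% of sites were narrower. The MES site at -53.1 kb was the only one of the 81 forkhead gene regions with the 8 letters searched for FOXH1, AATCCACA on either strand, which 1.74% of all linked regions held. It is shown for that match, in capitals, as 200 bases of the plus strand from RefSeq GRCm38 at chr2:148099941-148100140.
Foxa2 at -53.1 kb: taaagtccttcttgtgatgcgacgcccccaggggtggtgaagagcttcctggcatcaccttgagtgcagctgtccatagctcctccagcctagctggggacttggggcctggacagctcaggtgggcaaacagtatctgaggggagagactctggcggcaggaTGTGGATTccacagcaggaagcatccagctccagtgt

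Foxh1, at chr15:76667829-76671614 on the minus strand, lies between close neighbors and its sites cannot be assigned to it alone. It had 1 linked site in MES and 2 in HB, then 2 in HE, 2 in HP and 1 in MAC, covering 1.1, 2.6, 3.2, 2.2 and 0.9 kb. The site present in every stage spanned a predicted start of Foxh1 at chr15:76671614 and lay within 1 kb of a start of Ppp1r16a, a gene for a phosphatase regulatory subunit. At the curated start, chr15:76669948, promoter sites were listed in HB (1300 bp) and HE (1900 bp) alone, and the nearer of the pair ended 757 bp away. The HE site, the widest linked to any of the 8 genes, was wider than 93.4% of its list. The HB and HP sites at 2.24 and 2.22 kb, 1300 and 1100 bp wide, lay at the other end of the gene over an untranslated exon of Kifc2.

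Genes of the pathway in which FOXH1 acts had more open promoters in the early stages. Of 16 Nodal, SMAD and FOXH1 pathway genes, 13 had a promoter site in MES and 14 in HB, then 11 in HE, 8 in HP and 8 in MAC. The share for all genes was 57.2% in MES and 50.2% in MAC. Of the 16, 8 had a promoter site in all stages, and Tdgf1, the Nodal co-receptor, and Lefty2, a secreted Nodal inhibitor, had none in any. Gsc and Lefty1 had one in MES and HB alone, as did the ligand gene Gdf3. The promoter sites of Nodal itself were listed in HB and HE alone, so that MES, an early stage, lacked one. Counting all its linked sites, Nodal had some in MES (4), HB (3), HE (2) and MAC (1) and 0 in HP.

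Foxf1 and Foxc2 belong to 1 cluster on the plus strand of chromosome 8, at chr8:121084386-121088154 and chr8:121116171-121118895. The other forkhead gene of the cluster is Foxl1, which had no promoter site in any stage but 4 linked sites in MES and 4 in HB, then 6 in HE, 3 in HP and 2 in MAC. Foxf1 had 3 linked sites in MES and 4 in HB, then 3 in HE, 2 in HP and 2 in MAC, covering 2.2, 3.1, 2.5, 0.7 and 0.7 kb.

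The Foxf1 promoter region was listed in all 5 stages with an interval that differed in width. It was 1000 bp wide in MES and 900 bp in HB, then 400 in HE, 400 in HP and 200 bp in MAC. The MAC interval was at the narrow end of its list, of which 1.20% of sites were narrower. This region also lay within 1 kb of the start of Fendrr, a long non-coding RNA gene transcribed away from Foxf1. HE had a further promoter site of 1100 bp at 0.89 kb, over the coding exon, which no other stage had. The stretch shown is 200 bases of the plus strand from RefSeq GRCm38 at chr8:121083740-121083939, upstream of the Foxf1 start, chosen for its 29 CpG dinucleotides, which are in capitals. It lies within the MES and HB intervals in full.
Foxf1 promoter region: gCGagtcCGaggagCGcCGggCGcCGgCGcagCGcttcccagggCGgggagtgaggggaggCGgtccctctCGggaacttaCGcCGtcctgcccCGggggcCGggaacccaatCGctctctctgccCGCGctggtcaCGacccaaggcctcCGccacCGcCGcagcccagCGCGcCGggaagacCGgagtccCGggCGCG

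Around Foxf1, the regions of HP and MAC were also listed in MES and HB. A region at -10.7 kb in an exon of Fendrr was listed in MES (800 bp) and HB (1100 bp) alone, and the HB site was the widest linked to Foxf1 away from the promoter. Downstream, an HE site of 1000 bp at 5.74 kb and an HB site of 800 bp at 6.64 kb lay end to end without overlap. At 8.46 kb, over an untranslated exon of Mthfsd, a narrow region was listed in MES (400 bp), HB (300 bp), HP (300 bp) and MAC (500 bp) but not in HE.

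Foxc2 had its steadiest site outside the promoter. Its 3 regions gave 2 sites in MES and 2 in HB, then 3 in HE, 1 in HP and 1 in MAC. The promoter region was 800 bp wide in MES and HE and 700 bp in HB and was not listed in HP or MAC. A region at -2.69 kb was listed in every stage, 600 bp wide in MES and 1000 bp in HB, then 700 in HE, 800 in HP and 600 bp in MAC. The last region, at 3.15 kb, was an HE site of 800 bp. The 200 bases at chr8:121113265-121113464 (plus strand, RefSeq GRCm38) lie inside the interval of all 5 stages and are shown as the only Foxc2 sequence open in HP and MAC. Capitals mark the letters searched for TEAD, CATTCC on either strand, which 22.2% of the forkhead gene regions and 26.2% of all linked regions held.
Foxc2 at -2.69 kb: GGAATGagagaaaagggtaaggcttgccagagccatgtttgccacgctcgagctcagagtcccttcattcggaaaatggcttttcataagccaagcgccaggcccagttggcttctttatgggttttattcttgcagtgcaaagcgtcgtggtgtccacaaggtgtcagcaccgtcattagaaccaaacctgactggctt

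Foxc1, at chr13:31806646-31810635 on the plus strand, had the most sites of the 8 genes in HB and none listed in MAC. It had 6 linked sites in MES and 9 in HB, then 3 in HE, 1 in HP and 0 in MAC, covering 3.1, 6.3, 2.1, 0.6 and 0 kb. In HB 0.305% of protein-coding genes had as many sites or more, and in MES 0.962%. Each of the 6 MES regions was also open in HB, and each of the 3 HE regions was too. The promoter region, at -0.04 kb, was listed in HB (800 bp) and HP (600 bp). No promoter site was listed in MES, where 6 sites lay around the gene, or in HE.

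The Foxc1 sites formed a chain on both sides of the gene. Upstream, regions at -46.3, -22.0, -13.0 and -8.68 kb were listed in MES and HB alone. A region at -5.27 kb was listed in MES, HB and HE, with a width of 300, 500 and 800 bp. Downstream, the region at 4.14 kb was listed in HB and HE, the one at 14.2 kb in MES, HB and HE, and the one at 20.4 kb in HB. The last pair lay in introns of Gmds, a metabolic enzyme gene. With sites assigned to the nearest gene body in place of the nearest start, Foxc1 had 5 sites in MES and 7 in HB. When sites narrower than the median of their list were left out, it had 1 in each of these stages. Away from promoters each site was linked to 1 gene alone, so the counts cannot show whether neighboring forkhead genes share the chain. Foxq1 had 1 linked site in MES and 0 in HB, then 2 in HE, 0 in HP and 2 in MAC, and Foxf2 had 0, 1, 2, 0 and 0.

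The widest linked site of Foxc1 away from the promoter was the HB site at -13.0 kb, 1300 bp against 500 bp in MES. The 200 bases at chr13:31793564-31793763 (plus strand, RefSeq GRCm38) lie within both intervals and are shown because they held letters of 2 families at once. Capitals mark, from left to right, AGATAA and its complement TTATCT, searched for GATA factors, and TCACACCT, the complement of the letters AGGTGTGA searched for T-box factors such as Brachyury. GATA letters were in 25.9% of the forkhead gene regions and 22.0% of all linked regions, and in 5 of the 9 regions of Foxc1.
Foxc1 at -13.0 kb: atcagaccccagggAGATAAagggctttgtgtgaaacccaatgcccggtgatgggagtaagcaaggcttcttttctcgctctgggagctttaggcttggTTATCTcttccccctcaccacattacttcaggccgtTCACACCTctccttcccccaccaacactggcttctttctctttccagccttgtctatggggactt

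**Figure D2:**
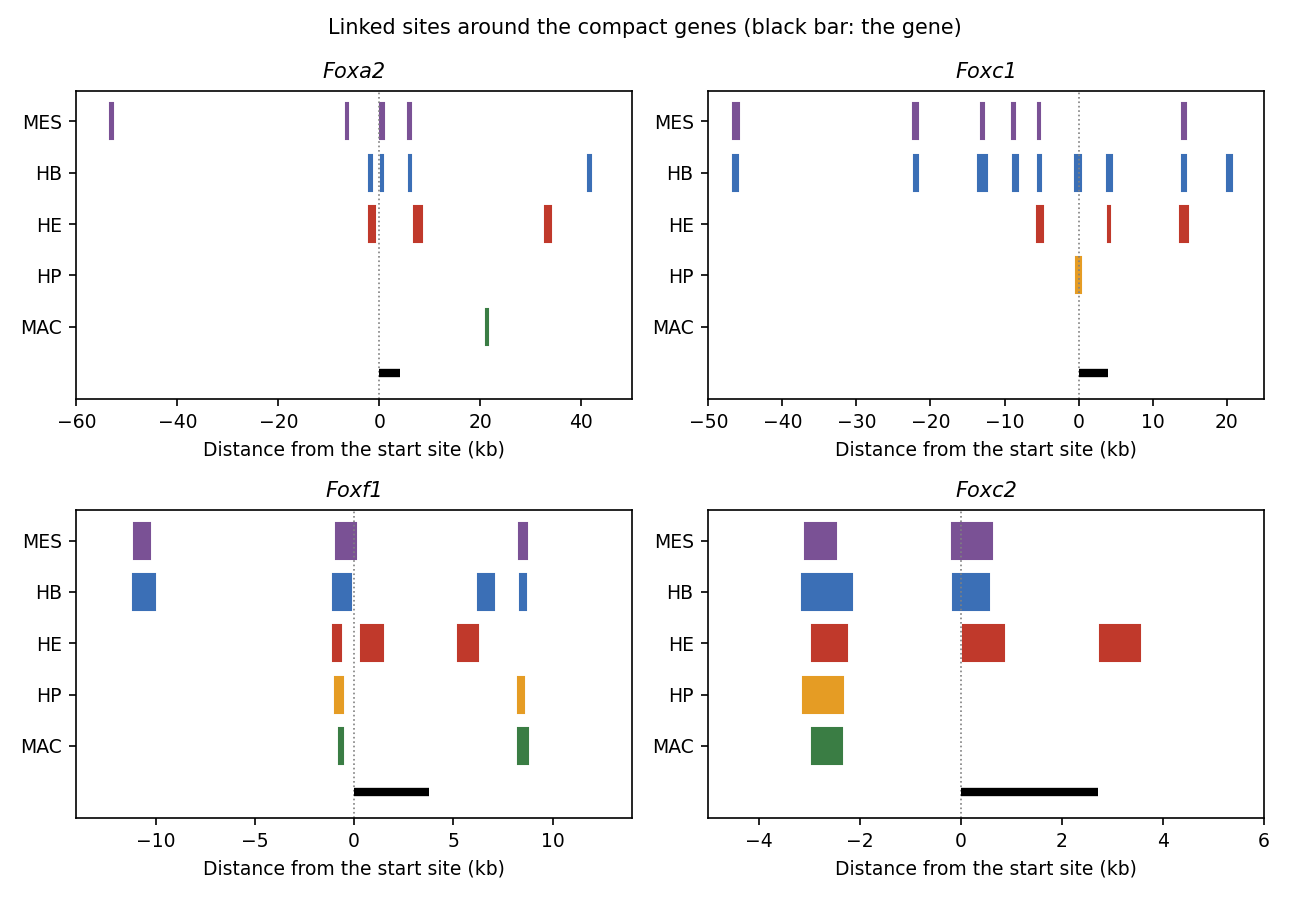
Linked sites of Foxa2, Foxc1, Foxf1 and Foxc2 by stage (rows, colored by stage) against distance from the start site in kb in the direction of transcription, with the gene as a black bar. Bars are drawn at site width, with a minimum so that narrow sites can be seen. Foxc1 sites line up between MES and HB on both sides of the gene, and the Foxc2 region at -2.69 kb appears in all 5 rows.

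Endothelial genes at which FOXC and ETS proteins are known to act together were open at their promoters chiefly in HE. Of 12 such genes, 4 had a promoter site in MES and 6 in HB, then 12 in HE, 7 in HP and 5 in MAC, against 61.7% of all genes in HE. Tek, Cdh5 and Notch4 had one in HE alone. Etv2 and Dll4 had one in every stage but MAC, and Tal1 in every stage but MES. Tek encodes Tie2, on which HE was sorted. Foxc2 had a promoter site in HE, but also in MES and HB, and Foxc1 had none in MES, HE or MAC. A link between the FOXC genes and the 12 promoters was not tested. The composite letters AACAGGAA were in 7 of the 81 forkhead gene regions (8.64%) and in 7.63% of all linked regions. None of these 7 lay at Foxc1, Foxc2 or Foxf1. Foxp1 had 4 of them, Foxo1 2 and Foxo3 1.

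Foxo1, at chr3:52268337-52350109 on the plus strand, had sites in every stage. It had 7 linked sites in MES and 6 in HB, then 6 in HE, 3 in HP and 6 in MAC, covering 3.4, 4.5, 6.3, 1.9 and 2.5 kb. As many sites or more were found at 0.443% of genes in MES and 1.68% in HB, then 3.87% in HE, 6.00% in HP and 6.30% in MAC. With lists of equal length Foxo1 had 3 sites in each of MES, HB and HP, 2 in HE and 1 in MAC. The promoter site was 800 bp wide in MES and 1000 bp in HB, then 1200 in HE, 600 in HP and 500 bp in MAC. The HE interval lay farther upstream, with its middle at -0.71 kb, and was counted as a region of its own although it overlapped the others.

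The Foxo1 promoter held the letters searched for forkhead factors, TGTTTAC on either strand, -270 bp from the start. These letters were in 5 of the 81 forkhead gene regions (6.17%, 95% Wilson interval 2.67 to 13.6%) and in 6.41% of all linked regions. In promoter regions they were in 4 of 18 (22.2%, 9.00 to 45.2%) against 3.86% of all, and in other regions in 1 of 63 against 7.37%. In the central 200 bp they were in 1 of the 18 promoter regions (5.56%, against 1.41% of all). The intervals cover counting error only, and 3 of the 4 promoter regions belonged to Foxp1. The reversed letters CATTTGT, a comparison of the same composition, were in 6 of the 81 regions (7.41%, against 7.82% of all) and in 0 of the 18 promoter regions, against 3.14% of all. The stretch shown, at chr3:52268064-52268263 (plus strand, RefSeq GRCm38), starts with the match in capitals. The match lay within the interval of all 5 stages.
Foxo1 promoter: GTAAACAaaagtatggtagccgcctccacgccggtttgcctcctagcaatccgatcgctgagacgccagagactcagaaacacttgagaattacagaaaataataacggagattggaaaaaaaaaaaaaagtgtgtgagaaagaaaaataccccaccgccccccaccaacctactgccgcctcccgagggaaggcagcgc

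Upstream of Foxo1 a cluster of sites was listed in every stage. The deposited intervals between chr3:52198016 and chr3:52199985, centered at -69.3 kb, overlapped in a chain over 1970 bp. The HE interval was 1800 bp wide, the widest linked to Foxo1 away from its promoter. MES had 1 site of 700 bp, HB 1 of 900 bp, HP 2 of 800 and 500 bp, and MAC 1 of 800 bp. The MES and HB sites lay in the right part and the MAC site in the left part, so that they met only through the HE interval. A separate narrow region at -71.9 kb was listed in MES, HB and MAC, at 300, 500 and 200 bp. The stretch shown, at chr3:52199391-52199590 (plus strand, RefSeq GRCm38), lay within the MES, HB, HE and HP intervals and not the MAC interval. Its capitals mark TTCCTGTT, the complement of the composite FOX and ETS letters, and ACTTCCT, the complement of AGGAAGT searched for ETS factors.
Foxo1 at -69 kb: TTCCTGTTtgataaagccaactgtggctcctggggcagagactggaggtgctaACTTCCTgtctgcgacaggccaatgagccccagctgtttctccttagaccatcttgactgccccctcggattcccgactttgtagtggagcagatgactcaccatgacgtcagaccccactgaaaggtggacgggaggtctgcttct

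The remaining Foxo1 sites divided the early stages from HE. Between the cluster and the promoter, regions at -14.2 and -10.4 kb were listed in MES and HB, one at -57.3 kb in MES, one at -25.7 kb in MES and MAC and one at -21.8 kb in MAC. HE had no listed site there. Inside the gene, HE had 4 sites, at 1.94, 28.1, 31.0 and 74.1 kb, where HB had 1 and MAC had 1 and where MES and HP had 0. This came to 4.89 HE sites per 100 kb of Foxo1, beside 2.00 per 100 kb over the merged bodies of all protein-coding genes. The HE site at 74.1 kb was 1000 bp wide, overlapped no site of another stage and held the composite letters at 2 places. It is shown for these, in capitals, as chr3:52342328-52342527 (plus strand, RefSeq GRCm38).
Foxo1 at 74.1 kb: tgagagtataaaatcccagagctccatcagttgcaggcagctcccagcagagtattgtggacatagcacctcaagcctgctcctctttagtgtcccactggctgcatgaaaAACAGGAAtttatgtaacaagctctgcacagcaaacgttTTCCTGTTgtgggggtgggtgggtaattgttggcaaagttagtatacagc

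Foxo3, at chr10:42181845-42276695 on the minus strand, had the widest promoter site of the 8 genes in each stage but HE, and its number of sites was highest in MAC. The promoter region was 1300 bp wide in MES and 1800 bp in HB, then 1500 in HE, 1800 in HP and 1600 bp in MAC. It was wider than 99.4% of the sites of its list in both HP and MAC, and wider than 67.1% in HE. Linked sites numbered 2 in MES and 5 in HB, then 4 in HE, 2 in HP and 7 in MAC, covering 1.7, 4.0, 4.2, 2.4 and 4.9 kb. As many sites or more were found at 3.04% of genes in HB, 4.30% in MAC, 10.5% in HE, 17.9% in HP and 23.1% in MES. The 200 bases at chr10:42277665-42277864 (plus strand, RefSeq GRCm38), upstream of the start, lay within the interval of every stage and held 26 CpG dinucleotides, in capitals.
Foxo3 promoter region: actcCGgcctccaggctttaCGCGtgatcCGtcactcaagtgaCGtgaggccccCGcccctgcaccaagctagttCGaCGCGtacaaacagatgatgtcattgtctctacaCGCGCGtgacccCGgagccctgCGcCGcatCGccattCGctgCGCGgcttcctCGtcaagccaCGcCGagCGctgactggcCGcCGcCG

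Beyond the promoter, 10 of the 13 Foxo3 regions were listed in 1 stage alone, or 9 of 12 by deposited intervals, since 1 of the 2 HE regions overlapped sites of other stages. Of the 9, 5 were listed in MAC alone, at 66.6, 51.4 and 5.82 kb inside the gene and at -17.2 and -22.9 kb upstream of it. HB alone had regions at 88.6 and 83.4 kb, HE alone one of 500 bp at 15.9 kb, and HP alone had 1 of 600 bp at 32.2 kb, the only forkhead gene region listed in HP alone. A region at -31.7 kb was listed in HB (700 bp) and HE (1000 bp). Near the start, sites of MES, HB and MAC at 2.73, 2.72 and 2.77 kb overlapped the HE site of 1200 bp at 2.19 kb, the widest linked to Foxo3 away from its promoter. No HP site lay there. Foxo3 had 4.22 MAC sites per 100 kb of its length and Foxo1 1.22, beside 2.05 over all gene bodies.

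Genes that regulate FOXO proteins or are known FOXO targets had promoter sites in almost every stage. Of 30 genes of the PI3K, AKT and FOXO pathway, 30 had a promoter site in MES, HB and HE, 29 in HP and 28 in MAC. These counts were above the share of all genes in each stage, between 50.1% in HP and 61.7% in HE. The exceptions were Irs1, an insulin receptor substrate, which had promoter sites in MES, HB and HE, and Sirt1, a deacetylase that acts on FOXO proteins, which had none in MAC. The linked sites of the list numbered 57 in MES and 68 in HB, then 101 in HE, 66 in HP and 150 in MAC. A promoter site in all 5 stages, as at Foxo1 and Foxo3, was found for 28 of the 30.

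Foxp1, at chr6:98925342-99522746 on the minus strand, is 597 kb long, and most of its sites were listed in MAC. It had 3 linked sites in MES and 4 in HB, then 5 in HE, 1 in HP and 15 in MAC, covering 1.4, 2.8, 6.0, 0.6 and 9.1 kb. As many sites or more were found at 0.262% of genes in MAC, and at 58.5% in HP. Within the gene itself lay 14 MAC sites, 2.34 per 100 kb, beside 2.05 over all gene bodies. The density in the other stages was at most 0.670 per 100 kb (HE), where all gene bodies had 2.00. The MAC count was thus high for a gene but close to the general density for its length, and the counts of the other stages lay below that density. Of the 22 regions of Foxp1, 13 were listed in MAC alone. The MAC site at 543 kb was 1100 bp wide, and 90.4% of the MAC list was narrower. When sites narrower than the median were left out, 6 MAC sites were counted.

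**Figure D3:**
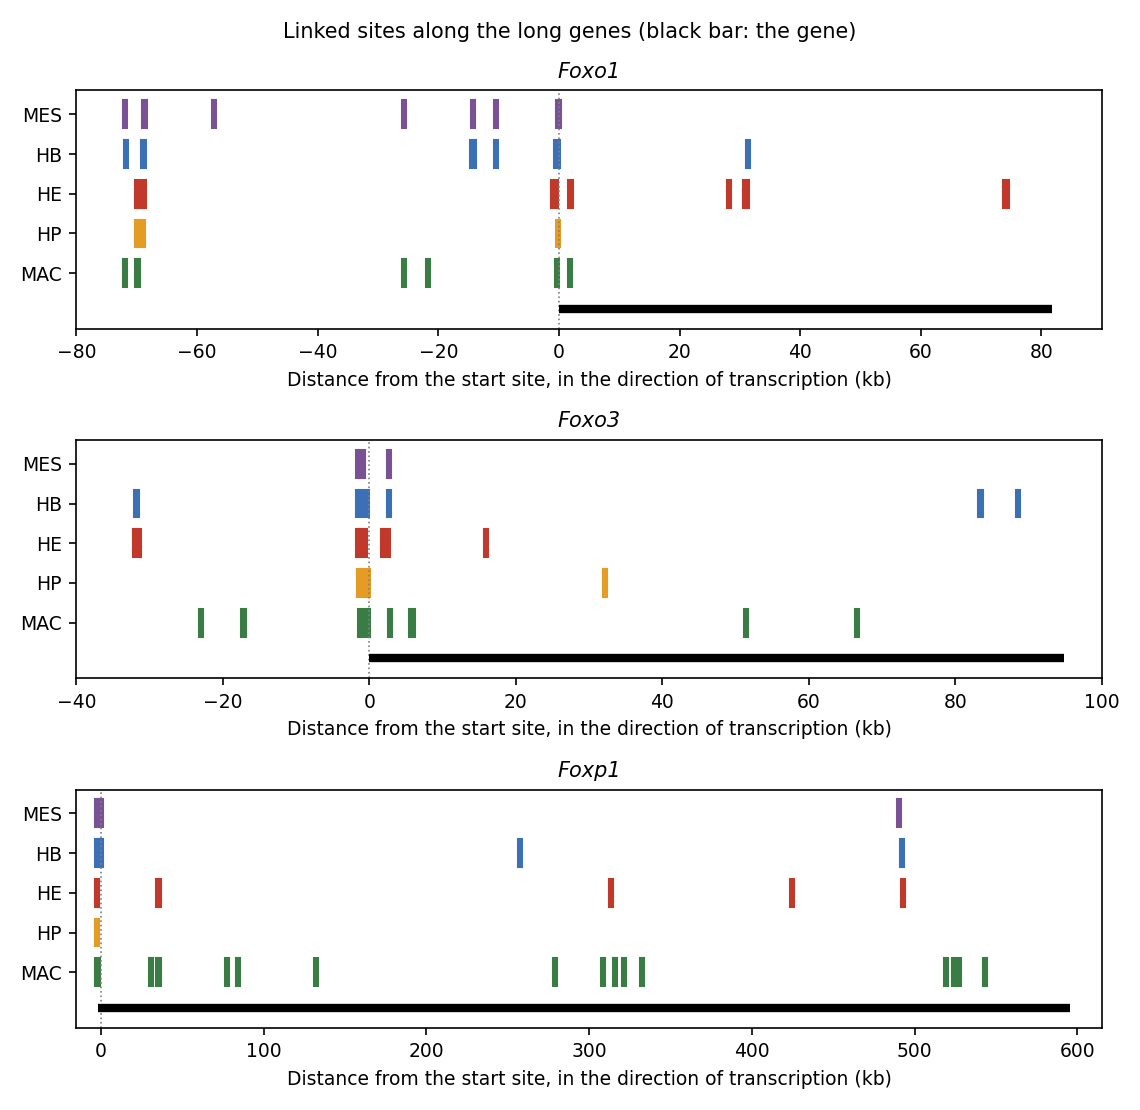
Linked sites of Foxo1, Foxo3 and Foxp1 by stage (rows, colored by stage) against distance from the start site in kb in the direction of transcription, with the gene as a black bar. Sites are drawn with a minimum width and so appear wider than they are, most of all at Foxp1. Foxp1 has 14 MAC sites within its body, and Foxo1 has 4 HE sites inside the gene and none between -69.4 kb and the promoter.

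Foxp1 has 29 annotated starts, 4 of them curated, and the promoter sites of the stages lay at different ones. At the curated start nearest the upstream end, chr6:99520993, sites were listed in MES (800 bp) and HB (1000 bp) alone. A region at -2.28 kb from it, within 1 kb of predicted starts that only its HE and MAC intervals covered, was listed in all 5 stages, 400 bp wide in MES and 700 bp in HB, then 1300 in HE, 600 in HP and 1000 bp in MAC. At the starts from chr6:99027986 to chr6:99028937 within the gene, one of them curated, sites were listed in HB (800 bp) and HE (1700 bp). Predicted starts from chr6:99096672 had an HE site of 1000 bp, and predicted starts from chr6:99204660 had a MAC site of 500 bp. The curated starts at chr6:99266515 and chr6:99435345 had no promoter site, although a MAC site lay 1005 bp from the latter, just outside the limit. Away from every start, the widest site was the HE site of 1200 bp at 35.4 kb, which a MAC site of 900 bp overlapped.

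Of the 5 regions with forkhead letters, 4 were at Foxp1. The region at -2.28 kb is shown as chr6:99523024-99523223 (plus strand, RefSeq GRCm38) because it was open in every stage. Its match, in capitals at the start, lay within the HE and MAC intervals and outside the narrower MES, HB and HP ones. The MAC site at 528 kb, 400 bp wide in an intron, is shown as chr6:98993350-98993549 because it was the only region away from a promoter with these letters.
Foxp1 at -2.28 kb: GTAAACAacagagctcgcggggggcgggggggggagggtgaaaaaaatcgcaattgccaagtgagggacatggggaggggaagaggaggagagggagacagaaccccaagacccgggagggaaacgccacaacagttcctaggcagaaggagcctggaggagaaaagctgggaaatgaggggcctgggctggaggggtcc
Foxp1 at 528 kb: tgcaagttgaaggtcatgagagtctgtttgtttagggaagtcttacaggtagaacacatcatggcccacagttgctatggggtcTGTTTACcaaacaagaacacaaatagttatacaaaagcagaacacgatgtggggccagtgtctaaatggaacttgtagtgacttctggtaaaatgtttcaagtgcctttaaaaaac

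**Figure D4:**
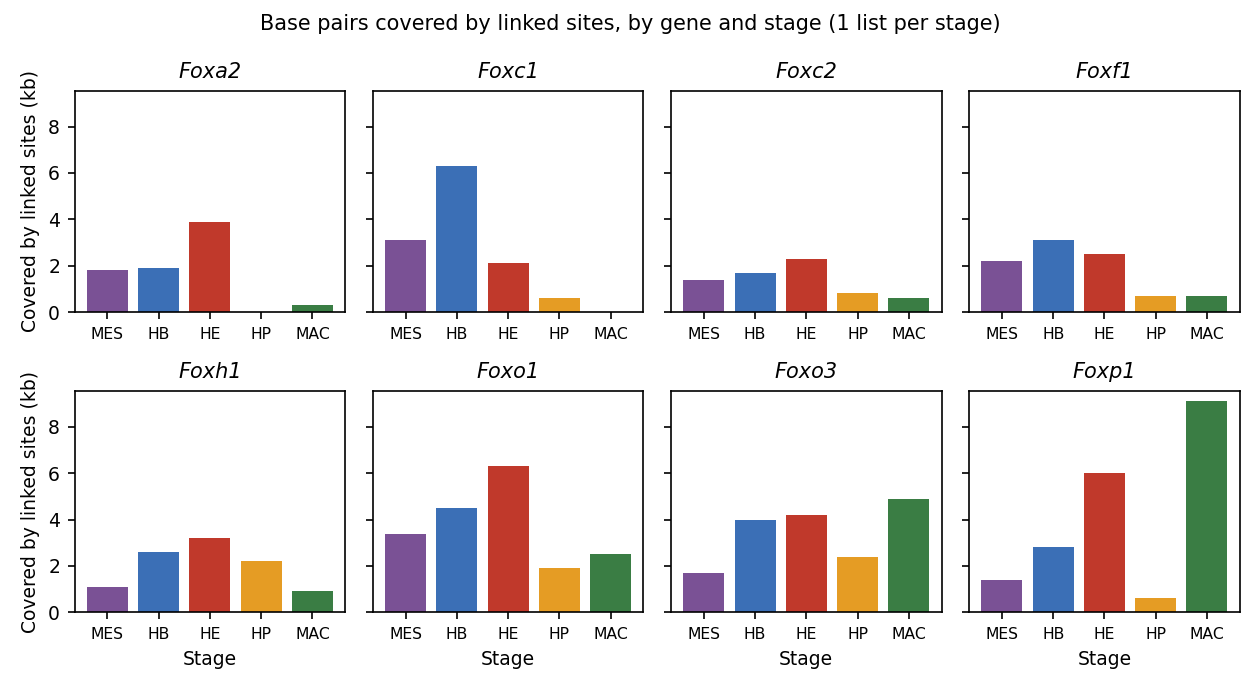
Length in kb covered by linked sites (vertical axis) in each stage (horizontal axis) for each forkhead gene, 1 list per stage and no error bars. The highest bar is Foxp1 in MAC at 9.1 kb, and Foxa2 in HP and Foxc1 in MAC are at 0.

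Over all 8 genes, few regions were shared by every stage. Of the 81 regions, 48 were listed in 1 stage alone (59.3%, 95% Wilson interval 48.4 to 69.3%), where 58.4% of all linked regions were. Open in all 5 stages were 4 (4.94%, 1.94 to 12.0%), where 14.5% of all linked regions were. These 4 were the Foxc2 region at -2.69 kb, the promoter regions of Foxf1 and Foxo3 and the Foxp1 region at -2.28 kb. Of the regions listed in a single stage, 20 were in MAC, 16 in HE, 7 in HB, 4 in MES and 1 in HP. The MAC list (37456 sites) and the HE list (33305) were also the longest, and the HP list (17734) the shortest. The most frequent pattern of more than 1 stage was MES with HB, in 10 regions. The shares of these stage patterns over all linked regions were not computed. The wide HE sites had displaced middles, and 6 of the 16 HE regions overlapped a site of another stage by their deposited intervals. With deposited intervals merged directly there were 74 stretches, 41 of them in 1 stage, 10 of these in HE, and 7 in all 5 stages.

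The regions were mostly away from the starts. Of the 81, 18 were promoter regions (22.2%), where 27.5% of all linked regions were. By their centers 38 lay in introns, 29 between genes, 8 in untranslated exons, 5 in non-coding exons and 1 in a coding exon. CpG-rich were 11 of 18 promoter regions (61.1%, against 64.8% of all promoter regions) and 4 of 63 others (6.35%, against 3.14%). Letters for RUNX (TGTGGTT) were in 9.88% of the regions and in 11.4% of all, and those for ETS factors in 19.8% and 22.2%.

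Fewer of the member sites than of all linked sites overlapped a site of the next stage from HB to HE and from HE to HP. From MES to HB 23 of 28 member sites overlapped a site of the next stage (82.1%, 95% Wilson interval 64.4 to 92.1%), against 83.9% over all linked sites. From HB to HE it was 17 of 36 (47.2%, 32.0 to 63.0%) against 71.8%. From HE to HP it was 8 of 29 (27.6%, 14.7 to 45.7%) against 47.9%, and from HP to MAC 8 of 12 (66.7%, 39.1 to 86.2%) against 68.6%. The intervals cover counting error only, and sites of 1 gene are not independent of each other. Promoter regions made up 22.2% of the member regions and 27.5% of all linked regions. Member sites were also mostly narrow, in HB 25 of 36 and in HE 17 of 29 below the median of the list. Foxc1 alone lost 6 regions from HB to HE. The part of each of these in the difference was not tested. Counted in merged regions, 11 of 36 HB regions were also open in HE (30.6%), where 65.7% were over all genes.

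The counts differed between genes from HB to HE and from HP to MAC. From HB to HE, Foxc1 retained 3 regions and lost 6, with the same counts by deposited intervals. Foxo1 retained 1, lost 5 and gained 5 when counted in merged regions, but retained 3, lost 3 and gained 3 by deposited intervals, since its promoter and the cluster at -69.3 kb overlapped between HB and HE. Foxc2 retained both of its HB regions and gained 1. From HP to MAC, Foxp1 gained 14 regions, Foxo3 6 and Foxo1 4, and no region of Foxc1, Foxc2, Foxf1 or Foxh1 was gained. Of the 33 MAC regions of the 8 genes 25 were not open in HP (75.8%), where this held for 66.5% of all linked MAC regions, in a list longer than that of HP. With lists of equal length 7 regions opened and 8 closed at this step, against 25 and 4, which turned the balance.

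Among the rest of the forkhead family, the promoter sites were counted in the same way. Of 36 other forkhead genes, 19 had a promoter site in MES and 18 in HB, then 19 in HE, 13 in HP and 10 in MAC, and 10 had one in every stage. In every stage this was below the share of all genes. The counts of both sets were lower in HP and MAC than in MES, HB and HE. For the 8 genes this did not hold within 100 bp of a start, with 3 genes in HE and 4 each in HP and MAC, or with lists of equal length, with 5 in HE and 6 in HP. A promoter site in a single stage was found for Foxb1 (MES), Foxf2 (HB), Foxl2 (HE) and Foxn4 (HB). Foxd1, Foxk1 and Foxp4 had one in every stage but MAC. Genes without one in any stage included Foxa1, Foxb2, Foxd3, Foxe1, Foxe3, Foxi1, Foxi2, Foxl1, Foxn1, Foxp3, Foxr1, Foxr2 and Foxs1. No test of the difference between the sets was made, since the 8 genes were chosen with results known.

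**Figure D5:**
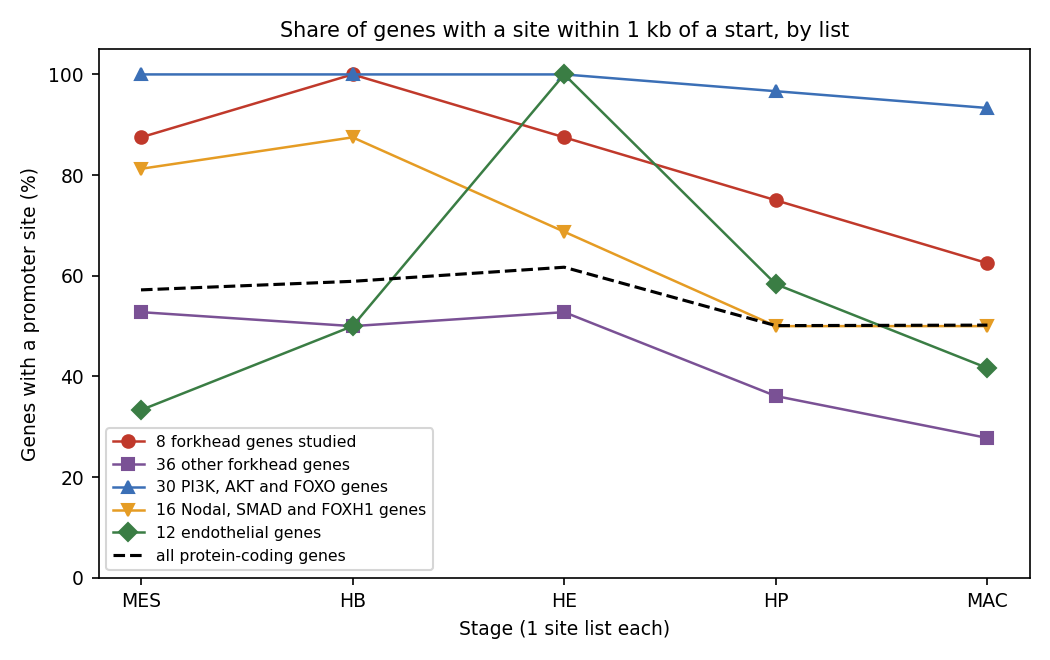
Percentage of genes with a site within 1 kb of a start (vertical axis) by stage (horizontal axis) for the 8 forkhead genes, the lists of 36, 30, 16 and 12 genes and all protein-coding genes (dashed). The endothelial list reached 12 of 12 in HE, and the 36 other forkhead genes lay under the dashed line in all 5 stages.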

How the data were processed

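DNaseI-seq was carried out on 5 populations, 1 sample each. Per its methods, the authors used CutAdapt, Bowtie (to mm10), Picard to drop duplicates, and the site caller DFilter with 100 bp bins. Tool versions were not given in the sources used here. The deposited values are the start and end positions of sites in base pairs, with no score or read count, so only absence from a list can be stated. Aligned read totals are reported by the study and were not used here. Sites within 1 kb of any RefSeq TSS (GRCm38.p6) were called promoter sites, and others were linked to the nearest protein-coding gene within it or up to 100 kb. Windows of 500 bp at site middles that overlapped by 125 bp or more were merged. A region was CpG-rich at a GC share of at least 0.5 and an observed to expected CpG ratio of at least 0.6. Letters were searched in the central 500 bp on both strands. Python 3.11.15, pandas 2.3.3 and pysam 0.24.0 were used, and the procedures were tested on simulated data. With 1 list per stage no test was made, and the same measure over all protein-coding genes served as background. Named beyond the 8 genes were their forkhead neighbors, genes of the fixed lists with a promoter site in 1 stage, in all but 1 or in none, the widest site away from each promoter, and the 2 genes most alike in covered length. The genes and lists were chosen with earlier results of these data known. Alternatives were the reach, the starts used, the width of sites, the merging and the motif window.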

Additional observations from a re-analysis of the deposited data

How the results depend on the processing

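No paired analysis was possible because each stage had 1 list. Of 87 summary values recomputed under another setting, 49 moved by at most 1.5 times and 38 by more. Leaving out sites narrower than the median of their list gave 9 linked sites in MES and 11 in HB, then 12 in HE, 3 in HP and 13 in MAC, 33 regions with 23 in 1 stage, promoter sites at 5 genes in HB, 2 in HP and 3 in MAC, and 2 genes with one in all stages. Regions opened were then 5 from MES to HB, 11 from HB to HE, 2 from HE to HP and 11 from HP to MAC, and closed were 3, 10, 11 and 1. Cutting each list to the widest sites, to as many as HP had, gave 16 linked sites in MES, 18 in HB, 12 in HE, an unchanged 12 in HP and 11 in MAC, 44 regions with 29 in 1 stage, and 3 genes with a promoter site in MAC and 3 in all stages. Opened were then 8 from MES to HB, 11 from HB to HE and 7 from HP to MAC, and closed were 10 from HE to HP and 8 from HP to MAC. Promoter sites within 100 bp were found at 3 genes in HE and at 1 gene in all stages. With curated starts alone, 3 genes had one in MAC and 3 in all stages, since Foxh1 then had one in 2 stages and Foxp1 in 3. Letters for forkhead factors were in 2 regions with a window of 200 bp. With deposited intervals merged, an alternative added after the data were seen, 3 regions opened from HE to HP. The cause of these shifts was not tested beyond the smaller number of sites or starts in each setting. Read depth was not taken into account, so no limit of detection is given.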

Other observations

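For each forkhead gene, the protein-coding genes with the most similar covered length over the 5 stages were found by Bray-Curtis dissimilarity (0 for equal profiles), after each list was scaled to its total. For Foxc1 the closest was Gm973 (0.0534), which covered 3.1 kb in MES, 6.2 kb in HB, 2.1 kb in HE, 0 kb in HP and 0.3 kb in MAC, followed by Tmem132c (0.0798). For Foxp1 the closest was Arhgap24 (0.0599), with 1.8, 2.3, 4.1, 0.6 and 9.1 kb, followed by Hk2 (0.0629), which encodes a hexokinase. For Foxo3 it was Taok3 (0.0357) and then Bhlhe41 (0.0522), for Foxo1 Fbxw11 (0.0393) and Tent5b (0.0414), and for Foxa2 Rbfox3 (0.0449) and Gm829 (0.0702). Foxc2 was nearest to Dnaaf2 (0.0279) and Trappc12 (0.0333), Foxf1 to Gm13090 (0.0399) and Lrrc10b (0.0413), and Foxh1 to Cebpe (0.0303), a myeloid factor gene without a promoter site in any stage, and Supt4a (0.0465). The likeness was taken over 5 values per gene and says nothing of shared control.

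Sites just past the reach were left out. By distance from the nearest of all annotated starts of its gene, the farthest linked site was an HB site of 500 bp at 88.6 kb in Foxo3, and the nearest left out was an HE site of 1100 bp at 102 kb from Foxo1. In all, 19 sites nearest to Foxo1, 8 nearest to Foxc1, 5 to Foxf1, 4 to Foxa2 and 2 to Foxp1 were beyond it.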
